A study of Mus musculus with 6 samples.

Results

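Toll-like receptors and the proteins that carry or complete them were examined in spleen RNA of 3 mouse samples labelled Rag2/pfp KO and 3 labelled wild type, on Illumina mouse bead arrays. The set was chosen by gene symbol and holds 7 receptors (Tlr1, Tlr2, Tlr3, Tlr4, Tlr7, Tlr9 and the receptor-like Cd180) and 3 partners (Ly86, Ly96 and Unc93b1). The platform annotation names 11 probes for 9 of these 10 genes, of 25697 probes and 16590 named genes on the array. Tlr9 has no probe named in it and is not analysed here.

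The KO group carries knockouts of Rag2, part of the enzyme that rearranges B and T cell receptor genes, and of pfp, the older name of the perforin gene Prf1. Animals without Rag2 are known to lack mature B and T cells, while natural killer and myeloid cells remain. The labels give no strain, age or treatment for the KO or the wild-type (WT) group. Nor do they state that each sample is its own mouse, and the p-values cover only sample-to-sample spread, part of which may be technical.

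Toll-like receptors sense microbial products. Tlr1, Tlr2 and Tlr4 work at the cell surface, Tlr1 only as a dimer with Tlr2, and recognise lipoproteins or lipopolysaccharide. Tlr3, Tlr7 and Tlr9 sense nucleic acids inside endosomes and need the membrane protein Unc93b1 to travel there from the endoplasmic reticulum. Ly96 (MD-2) sits on Tlr4 and binds lipopolysaccharide. Cd180 (RP105) resembles Tlr4 in its outer part but lacks the inner signalling domain, pairs with Ly86 (MD-1), which resembles Ly96, and is known for its expression on B cells as well as on macrophages and dendritic cells. In whole spleen RNA, fewer cells of a type and less RNA per cell cannot be told apart.

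Promoter sequences are shown for Cd180, the member whose change passed the test, for its partner Ly86, for Tlr1, which had the largest difference, and for Tlr2, the dimer partner of Tlr1, which had the smallest. They are RefSeq windows of build GRCm38.p6, from 250 bases before to 50 bases after an annotated start, 5′ to 3′ on the gene's strand, with motif matches in capitals. The Cd180 window lies at chr13:102693297-102693596 (plus strand), the Ly86 window at chr13:37345095-37345394 (plus strand), the Tlr1 window at chr5:64933509-64933808 (minus strand) and the Tlr2 window at chr3:83841559-83841858 (minus strand).
Cd180: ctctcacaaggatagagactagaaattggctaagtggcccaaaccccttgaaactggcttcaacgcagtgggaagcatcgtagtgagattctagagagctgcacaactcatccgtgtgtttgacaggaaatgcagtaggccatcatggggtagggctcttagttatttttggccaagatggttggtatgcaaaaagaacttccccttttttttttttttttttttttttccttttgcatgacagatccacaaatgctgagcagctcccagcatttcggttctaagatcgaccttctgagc
Ly86: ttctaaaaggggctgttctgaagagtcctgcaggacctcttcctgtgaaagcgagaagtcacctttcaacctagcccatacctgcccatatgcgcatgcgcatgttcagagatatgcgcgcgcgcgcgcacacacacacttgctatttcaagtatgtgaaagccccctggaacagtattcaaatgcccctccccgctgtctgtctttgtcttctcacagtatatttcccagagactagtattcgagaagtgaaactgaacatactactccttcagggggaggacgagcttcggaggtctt
Tlr1: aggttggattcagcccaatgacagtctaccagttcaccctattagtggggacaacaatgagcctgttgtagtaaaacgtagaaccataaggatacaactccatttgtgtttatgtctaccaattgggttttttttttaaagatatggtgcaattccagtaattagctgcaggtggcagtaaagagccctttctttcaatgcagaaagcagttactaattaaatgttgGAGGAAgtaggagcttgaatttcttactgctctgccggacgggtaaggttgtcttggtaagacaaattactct
Tlr2: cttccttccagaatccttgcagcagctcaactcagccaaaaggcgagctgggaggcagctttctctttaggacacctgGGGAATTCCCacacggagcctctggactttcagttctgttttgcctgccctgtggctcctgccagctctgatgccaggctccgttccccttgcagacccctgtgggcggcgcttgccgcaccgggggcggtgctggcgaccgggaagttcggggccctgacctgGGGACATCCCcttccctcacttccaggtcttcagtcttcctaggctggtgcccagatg

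Both strands of all 8 windows that the table holds, for 6 of the 10 genes, were searched for 5 motifs. These were GAGGAA, the core bound by the myeloid and B cell factor PU.1, the octamer ATGCAAAT, and the motifs known as the Ebf1 site, the NF-kB site and the interferon element. The Tlr1 window held GAGGAA at positions -23 to -18 before the start, a motif present in 28.3% of all 32851 windows of this length. The Tlr2 window held GGGAATTCCC at -172 to -163 and GGGACATCCC from -8 to 2, both of which read as the NF-kB motif on either strand. That motif is present in 20.7% of windows. The Cd180 and Ly86 windows held none of the 5 motifs, and neither did the windows at the other start of Cd180 and of Tlr1. The Tlr9 window held the octamer and GAGGAA, and the Tlr3 window the NF-kB motif. The octamer was present in 1.74% of windows, the Ebf1 motif in 0.904% and the interferon element in 3.44%, and none of the printed windows held them.

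On these arrays between 12084 and 12595 probes were detected in KO spleens and between 12545 and 13149 in WT spleens, where a probe counts as detected at a detection p-value under 0.05 on an array. Raw median signals ranged over 142 to 158 in KO and 151 to 164 in WT. Across tested probes, which are not independent replicates, the KO arrays correlated at 0.931 to 0.958 and the WT arrays at 0.978 to 0.987. Of B cell marker genes, 9 of 9 tested were called lower in KO (limma adjusted p under 0.05), with a median of -4.45 log2. All 8 tested T cell marker genes read lower in KO, with a median of -4.49, and 6 of them were called. Over all tested genes 2.88% were called lower. Of the tested marker genes, 2 B cell and 2 T cell genes were not detected on any KO array and others only on some. Values over both lists are therefore lower bounds on the size of the fall. Rag2 was undetected on all 6 arrays and Prf1 was detected in both groups, so neither checks the genotype. KO replicate 2 stood apart in Xist, whose probes read 4.88 and 5.13 log2 there and 7.13 to 9.41 on the other 5 arrays.

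All 9 tested probes of the set, from 8 genes, read lower on average in KO than in WT spleens, and 1 of them, the Cd180 probe, passed the test. The tested probes were detected on all 6 arrays, so none of them entered through 1 group alone. Levels below are background-corrected, quantile-normalized log2 signals, and differences are KO minus WT. The median difference over the 8 genes was -0.49 log2, against 0.03 over all 9158 tested genes. Among all 12885 tested probes 47.1% lay below 0. The probes of Tlr3 and the dimmer of the Tlr4 probes were not detected on any array and were not tested.

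The call rate over all tested probes was 3.92%, or 505 probes, and 2.94% were called lower. Of the 9 member probes 1 was called, and it was lower. KO and WT values did not overlap on 4 of the 9 member probes, all lower in KO, where 12.0% of all tested probes separated in that direction and 24.4% in either. The 4 were the probes of Tlr1, Cd180 and Ly86 and the dimmer probe of Unc93b1. The all-probe split of 126 higher and 379 lower depends on the scaling, and without between-array normalization 16 were higher and 857 lower, with the all-probe median at -0.33 log2. Median centring gave 49 higher and 661 lower, with that median at -0.16. All 9 member probes were below that median under each of the 17 alternatives, though several of these leave the member differences unchanged.

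**Figure D1:**
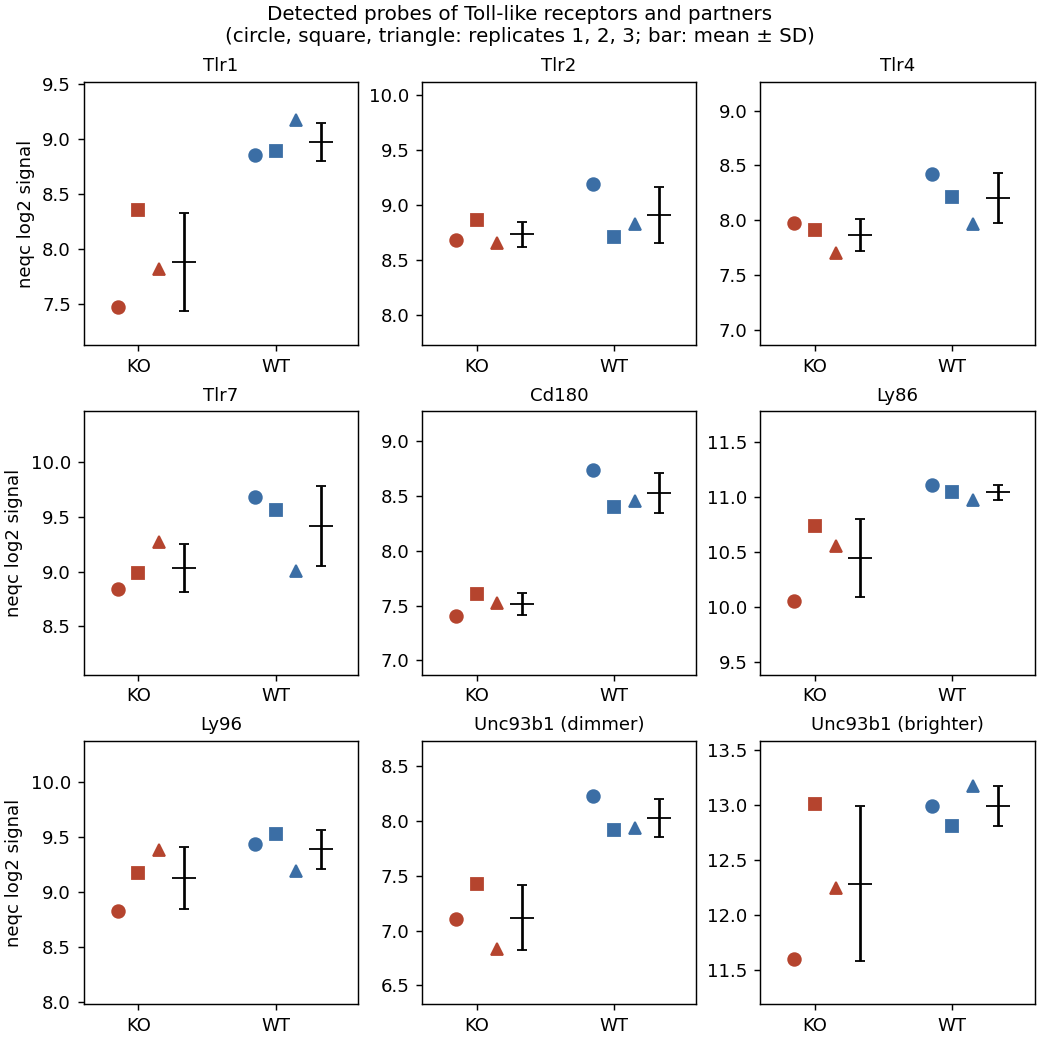
Normalized log2 signal of the 9 detected probes on each array, with KO left and WT right and the mean ± SD of 3 arrays beside the points. Every panel spans the same log2 range. The groups separate for Tlr1, Cd180, Ly86 and the dimmer Unc93b1 probe, and overlap for Tlr2, Tlr4, Tlr7, Ly96 and the brighter Unc93b1 probe.

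Among the surface receptors, Cd180 read 7.41, 7.61 and 7.52 log2 on KO replicates 1 to 3, against 8.73, 8.40 and 8.45 on WT replicates 1 to 3. The highest KO array lay below the lowest WT array, and the KO arrays spanned a narrow range. Cd180 fell by 1.01 ± 0.22 log2 (SE), a 2.02-fold lower signal in KO (limma adjusted p = 0.0401, 95% interval -1.52 to -0.51). The raw signal was 295, 248 and 251 in KO, against 664, 505 and 462 in WT, so the separation was present before normalization. In the authors' deposited log2 values Cd180 averaged 8.20 ± 0.06 in KO and 8.90 ± 0.14 in WT (SD, n = 3), a smaller difference of -0.70 that was also called (adjusted p = 0.0350). The call was lost without KO replicate 1 (adjusted p = 0.0516), KO replicate 3 (0.0672) or any WT replicate (0.144 to 0.221), and with a trended, robust variance (0.0602), while the difference stayed between -1.08 and -0.92 log2 in these fits.

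Tlr1, which senses triacylated lipoproteins together with Tlr2, read 7.47, 8.35 and 7.82 log2 in KO, against 8.85, 8.89 and 9.18 in WT. Every KO array lay below every WT array, and the KO arrays were spread more widely than the WT arrays. The difference of -1.10 ± 0.28 log2 (SE), the largest of the set, did not pass over all probes (adjusted p = 0.0661, 95% interval -1.72 to -0.47). It passed without KO replicate 2 (adjusted p = 0.0270), with median centring (0.0129), with array weights (0.0388) and with no scaling between arrays (0.00693). The authors' deposited log2 values gave 8.44 ± 0.30 in KO and 9.25 ± 0.14 in WT (SD, n = 3).

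Tlr2 itself read 8.68, 8.86 and 8.65 log2 in KO, against 9.19, 8.70 and 8.83 in WT. The groups overlapped, since KO replicate 2 lay above WT replicates 2 and 3. Its difference was -0.18 ± 0.23 log2 (SE, adjusted p = 0.775), with a 95% interval of -0.70 to 0.35.

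Tlr4, the lipopolysaccharide receptor, read 7.98, 7.91 and 7.70 log2 in KO, against 8.42, 8.21 and 7.97 in WT on its detected probe. The highest KO array and the lowest WT array nearly coincided. The difference was -0.33 ± 0.23 log2 (SE, adjusted p = 0.520, 95% interval -0.86 to 0.19). Its other probe read 4.72 to 4.83 in KO and 4.62 to 4.74 in WT, not detected on any array.

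Among the endosomal receptors, Tlr7, a sensor of single-stranded RNA, read 8.84, 8.99 and 9.27 log2 in KO, against 9.68, 9.57 and 9.003 in WT. WT replicate 3 lay within the range of the KO arrays, so the groups overlapped. The difference was -0.39 ± 0.26 log2 (SE, adjusted p = 0.512, 95% interval -0.98 to 0.21). Tlr3, a sensor of double-stranded RNA, read 4.88 to 5.34 in KO and 4.89 to 5.23 in WT and was not detected on any array, with detection p-values of 0.0652 to 0.414, so no difference between the groups could be measured for it.

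Of the partners, Ly86, the secreted protein that holds Cd180 at the surface, read 10.05, 10.73 and 10.55 log2 in KO, against 11.11, 11.05 and 10.97 in WT. The groups did not overlap, and KO replicate 1 was the lowest array. The difference of -0.60 ± 0.25 log2 (SE) did not pass (adjusted p = 0.248, 95% interval -1.16 to -0.03), and it was -0.39 without KO replicate 1. Ly96, the lipopolysaccharide-binding partner of Tlr4, read 8.82, 9.18 and 9.38 log2 in KO, against 9.44, 9.53 and 9.19 in WT. KO replicate 3 lay above WT replicate 3, and the difference was -0.26 ± 0.24 log2 (SE, adjusted p = 0.662, 95% interval -0.81 to 0.29). It was -0.11 without KO replicate 1.

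Unc93b1, the chaperone of the endosomal receptors, had 2 probes. The brighter one read 11.60, 13.01 and 12.25 log2 in KO, against 12.99, 12.81 and 13.18 in WT. KO replicate 2 lay among the WT arrays and KO replicate 1 more than 1 log2 below all of them, and the difference was -0.71 ± 0.35 log2 (SE, adjusted p = 0.338). It was -0.36 without KO replicate 1 and -1.06 without KO replicate 2. The dimmer probe read 7.10, 7.42 and 6.83 log2 in KO, against 8.23, 7.91 and 7.94 in WT. Here the groups did not overlap, and the difference was -0.91 ± 0.25 log2 (SE, adjusted p = 0.0809, 95% interval -1.46 to -0.35). The dimmer probe passed without KO replicate 2 (adjusted p = 0.0484), with median centring (0.0306) and with no scaling between arrays (0.0265).

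**Figure D2:**
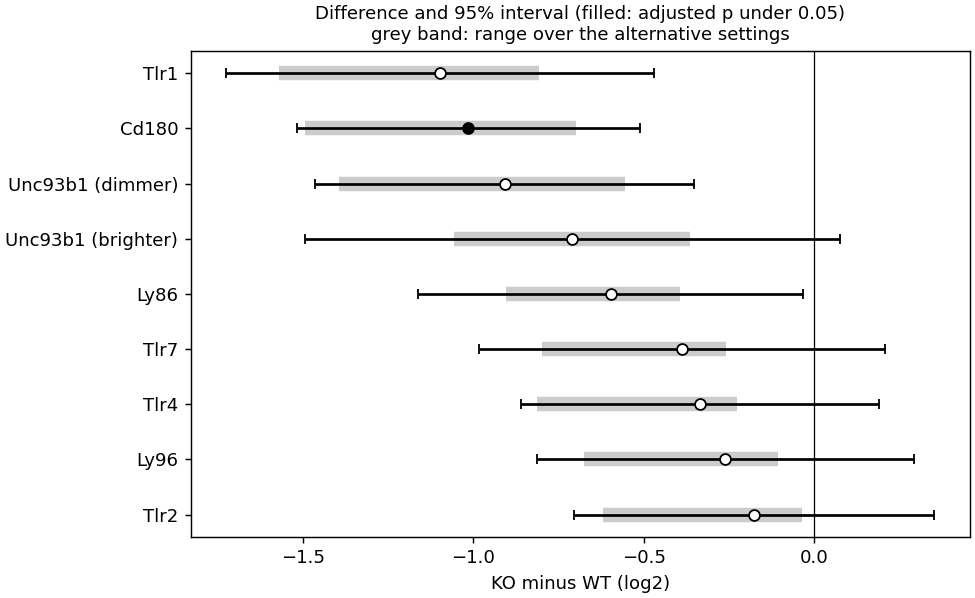
KO minus WT difference in log2 of each detected probe (point) with its 95% interval (line) and its range over the 17 alternative settings (grey band). All points lie below 0, from -1.10 for Tlr1 to -0.18 for Tlr2, and only the interval of Cd180 belongs to a called probe.

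Whether members that work together changed unequally was tested on the within-array difference of their probes, in 6 pairs, with an exact two-sided permutation test over the arrays whose smallest possible p is 0.1. Pairs with Tlr3 and Tlr9 could not be formed. Tlr1 changed by -0.92 ± 0.29 log2 (SE) relative to Tlr2, with all KO arrays below all WT arrays (exact p = 0.1, adjusted over the 6 pairs 0.3). Cd180 changed by -0.68 ± 0.14 relative to Tlr4, again without overlap (exact p = 0.1, adjusted 0.3). For Cd180 against Ly86 the value was -0.42 ± 0.17 and for Ly86 against Ly96 -0.34 ± 0.14 (both exact p = 0.2, adjusted 0.3). For Tlr4 against Ly96 it was -0.07 ± 0.26 (exact p = 0.9) and for Tlr7 against Unc93b1 0.32 ± 0.49 (exact p = 0.5, adjusted 0.6). Unc93b1 entered by its brighter probe, which differed by -0.71 log2. Its dimmer probe, at -0.91 log2, was not tested in this pair. The smallest p of this test lies above 0.05, so it could call no pair. The Cd180 against Ly86 value was -0.14 without background correction, as in the authors' deposited log2 values. The Tlr7 against Unc93b1 value was 0.029 without WT replicate 3, 0.078 without KO replicate 1 and 0.69 without KO replicate 2.

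**Figure D3:**
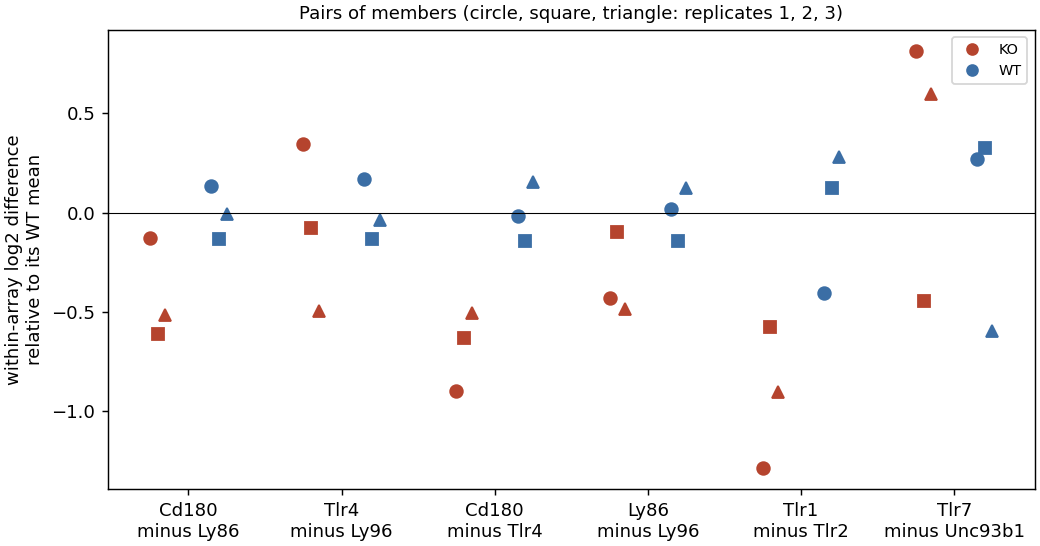
Within-array log2 difference of 2 members on each array, relative to its WT mean, with KO left of WT in each pair. KO and WT arrays separate for Cd180 minus Tlr4 and for Tlr1 minus Tlr2 and overlap in the other 4 pairs.

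The member probes did not vary alike among the KO arrays. KO replicate 1 was the lowest of all 6 arrays on 6 of the 9 probes and KO replicate 3 on the other 3, while WT replicate 1 was the highest on 6. The mean of the 8 genes relative to WT was -0.83, -0.35 and -0.54 log2 on KO replicates 1 to 3. Cd180 varied least, at -1.12, -0.92 and -1.01 log2 relative to its WT mean, and the brighter Unc93b1 probe most, at -1.39, 0.02 and -0.75. With each array left out in turn, the difference ranged from -0.28 to -0.03 log2 for Tlr2, from -0.45 to -0.23 for Tlr4 and from -0.59 to -0.26 for Tlr7.

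Marker genes of several cell types that carry these receptors moved with the groups. B cell markers averaged -4.69, -4.31 and -4.51 log2 on KO replicates 1 to 3 relative to WT, on 9 tested of 12 listed genes, with list means of 5.998 to 6.38 log2 in KO and 10.55 to 10.81 in WT. Neutrophil markers, on all 12 listed genes, averaged -2.27, -1.17 and -1.25, with list means of 10.79 to 11.89 in KO and 12.95 to 13.12 in WT. Of the 12, 7 were called lower, against 2.88% of all tested genes. KO replicate 1 was the lowest KO array in every marker list except the erythroid one, where it was the highest. Marginal zone macrophage markers averaged -1.66, -1.43 and -1.15 on 4 genes, of which 2 were called lower, with list means of 6.97 to 7.48 in KO and 8.39 to 8.77 in WT.

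In the remaining macrophage, monocyte and dendritic cell lists at most 1 gene per list was called. Red pulp macrophage markers averaged -0.32, 0.46 and -0.19 log2 on the KO arrays, with 0 of 10 called. Their list means were 11.19 to 11.97 in KO and 11.06 to 12.06 in WT. These values rest partly on Hmox1, the most variable of the 10. It read 7.86, 10.76 and 6.93 log2 in KO, against 12.15, 8.02 and 7.30 in WT. Monocyte markers averaged -0.69, -0.10 and -0.33 on 5 tested genes, at 10.03 to 10.63 in KO and 10.38 to 11.02 in WT. Of the 5, 1 was called lower, against 2.88% of all tested genes. It was Lyz2, at -1.61 log2 (limma adjusted p = 0.0208), whose other tested probe was not called (-0.80, adjusted p = 0.324). Ccr2, Ms4a4c and Ace were not detected on any array. Plasmacytoid dendritic cell markers averaged -0.98, -0.18 and 0.35 on 5 genes with 0 called, at 7.70 to 9.03 in KO and 8.43 to 8.96 in WT, and Ccr9 was not detected. Conventional dendritic cell markers averaged 0.15, 0.41 and 1.14 on 4 tested of 8 listed genes with 0 called. Their list means were 7.05 to 8.04 in KO and 6.73 to 7.02 in WT, and Flt3 and Clec9a were not detected on any array. Of the 4, Cd209a was detected on 2 KO arrays and 1 WT array, and Clec10a on 1 KO array and 2 WT arrays. These averages therefore rest partly on values near background. On KO replicate 3 Cd209a read 6.47 and Clec10a 7.40 log2.

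Erythroid markers averaged 1.40, 0.83 and 0.84 log2 on the KO arrays relative to WT on 6 tested genes. Their list means were 12.73 to 13.31 in KO and 11.87 to 11.93 in WT. Of the 6, 3 were called higher, against 1.04% of all tested genes. The groups did not overlap on any of the 6, all higher in KO, against 24.4% of all tested probes without overlap in either direction. Natural killer cell markers averaged 0.46, 0.80 and 0.98 on 3 tested genes with 0 called, at 8.45 to 8.97 in KO and 7.88 to 8.13 in WT, and Ncr1, Gzma and Eomes were not detected. The part of any of these marker lists in the member differences was not tested.

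**Figure D4:**
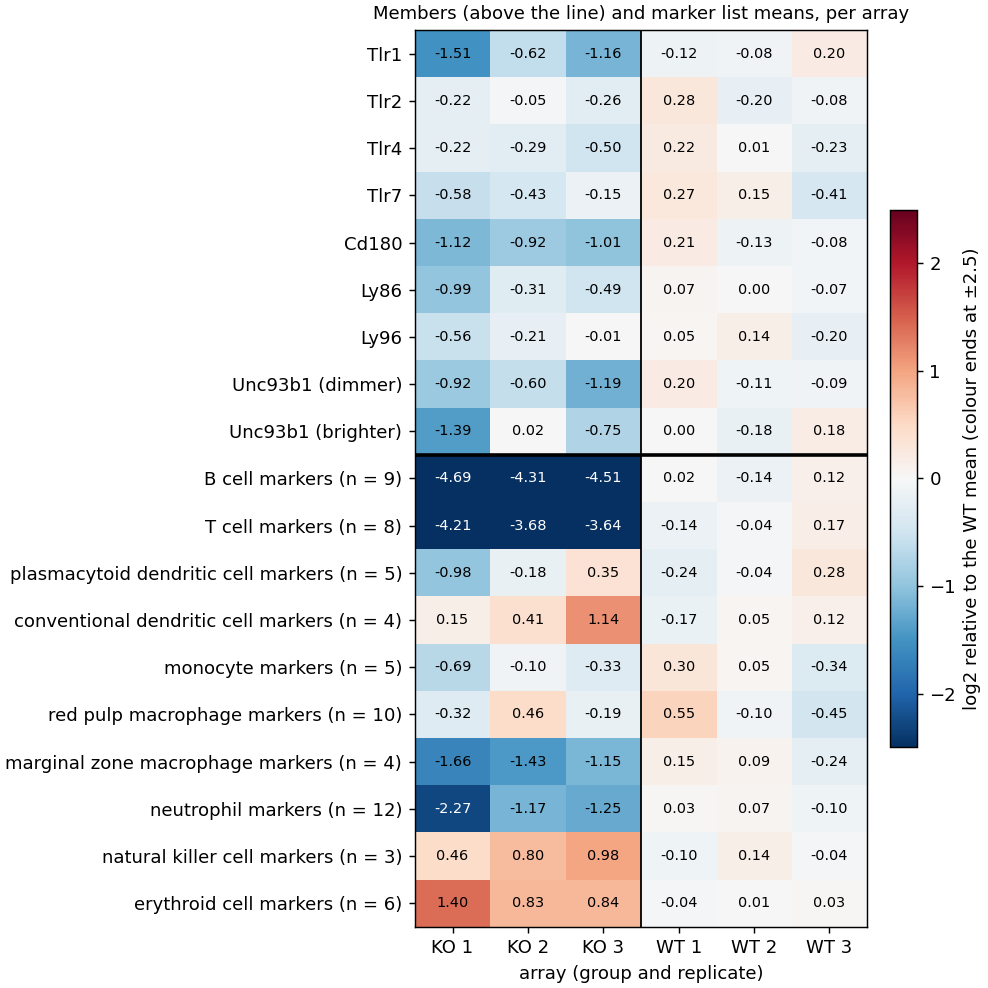
Log2 value on each array relative to the WT mean, for the 9 member probes (above the line) and for the means of marker lists (below it), with the KO arrays left of the WT arrays. Cd180 is near -1 on all 3 KO arrays, B cell markers lie at -4.69 to -4.31 there, and red pulp macrophage markers lie on both sides of 0.

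The genes whose profile over the 6 arrays was most like that of Cd180, by the root mean square difference of log2 values centred on each probe's mean, were Blk at 0.079, Nin at 0.088 and Gpat3 at 0.099 log2. Blk encodes a kinase of the B cell receptor pathway. The Blk probe concerned, a dim one, and the Gpat3 probe were not detected on any KO array, so their KO values are bounds only, and the other tested Blk probes differed by -5.18 and -5.41 log2. Nin, which encodes the centrosome protein ninein, was detected on all 6 arrays, at 8.45, 8.58 and 8.64 log2 in KO, against 9.73, 9.49 and 9.30 in WT.

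Of 58 other genes of the pathway, 48 were tested, 1 was called lower, 0 were called higher and 47 did not pass. Their median difference was -0.28 log2, against 0.03 over all tested genes, with 33 of 48 below 0. Over all tested genes 2.88% were called lower and 1.04% higher. Of the 48, 41 were detected on all 6 arrays. Rel and Socs1 were detected on 3 WT and 0 KO arrays and so entered through WT alone. Their KO values are at background, and they count here and in the medians by role below. The gene called lower was Lbp, which encodes the serum protein that delivers lipopolysaccharide to the Tlr4 complex. It read 5.98, 6.78 and 6.21 log2 in KO, against 7.70, 7.95 and 8.05 in WT, without overlap. It fell by 1.58 ± 0.27 log2 (SE), a 2.98-fold lower signal in KO (adjusted p = 0.0148). The difference was -0.84 in the authors' deposited log2 values, and the call was lost without any single WT replicate (adjusted p = 0.0555 to 0.0840).

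Of the other Toll-like receptors 5 were tested and 0 were called, with differences of -0.41 to -0.03 log2. Tlr6, a further dimer partner of Tlr2, read 7.37, 8.18 and 8.09 log2 in KO, against 8.32, 8.25 and 8.30 in WT, without overlap, a difference of -0.41 ± 0.27 (SE, adjusted p = 0.492). Tlr13, which in mice senses bacterial ribosomal RNA, differed by -0.14 ± 0.28. Of the genes for chaperones and endosomal processing 7 were tested and 0 were called, with a median of -0.37 log2. Hsp90b1, the endoplasmic reticulum chaperone that folds most Toll-like receptors, differed by -0.64 ± 0.28 (adjusted p = 0.269) without overlap of the groups, and the protease gene Ctsb by 0.19 ± 0.24.

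Among the adaptors, 0 of 5 were called and the median was -0.30 log2. Myd88, the adaptor used by all Toll-like receptors measured here except Tlr3, read 12.01, 12.38 and 12.64 log2 in KO, against 12.29, 12.51 and 12.24 in WT. The groups overlapped fully, with a difference of -0.01 ± 0.25 log2 (SE). Tirap, which bridges Tlr2 and Tlr4 to Myd88, read 7.70, 8.63 and 8.13 log2 in KO, against 9.07, 9.24 and 9.32 in WT. Its groups did not overlap, and the difference of -1.06 ± 0.28 did not pass (adjusted p = 0.0732), nor did that of its other tested probe, at -0.94 ± 0.23 (adjusted p = 0.0552).

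Downstream, 0 of 13 genes for kinases, their partner proteins and ubiquitin ligases were called, with a median of 0.11 log2 and 7 of 13 above 0. The brightest were Tab2, a binding protein of the kinase Tak1, at 0.25 ± 0.22 log2 (SE), and the kinase gene Tbk1, at -0.22 ± 0.35. Of 8 transcription factor genes 0 were called, with a median of -0.34 log2, and Irf1 and Irf3 differed by -0.12 ± 0.36 and -0.34 ± 0.24. Of 8 negative regulators 0 were called, with a median of -0.43 log2, and Tollip and Cyld differed by 0.19 ± 0.23 and -0.44 ± 0.26. Chosen after their values were seen, Ikbke, a kinase related to Tbk1, differed by -1.27 ± 0.35 log2 (adjusted p = 0.0832), Sigirr, an inhibitory receptor of the same superfamily, by -1.15 ± 0.29 (0.0678) and Irf7, an interferon regulatory factor used by Tlr7, by 0.97 ± 0.26 (0.0813), each without overlap of the groups.

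**Figure D5:**
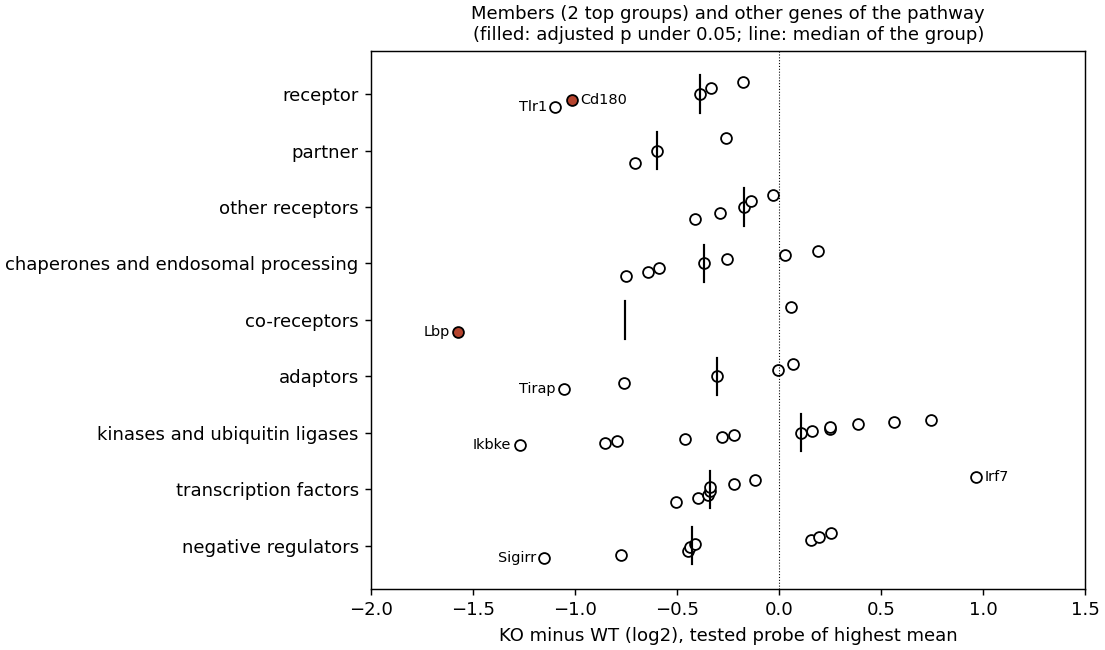
KO minus WT difference in log2 of each tested gene, by its role, with the median of each group as a vertical line and called genes filled. Cd180 and Lbp are the filled points, and genes beyond 0.9 log2 are labelled. The group labelled kinases and ubiquitin ligases, which includes partner proteins of kinases, spreads on both sides of 0.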

How the data were processed

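Per the file headers, the deposited scanner table gives each probe's intensity before normalization, and beside it the deposited detection p-value. A second deposited table holds log2 values of unstated method, and quantile normalization of the uncorrected log2 intensities gave the same numbers within 5e-07. The submitters' processing notes name GenomeStudio 2011.1. Groups came from the sample titles, and columns were matched through the sample descriptions.

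The neqc function of limma 3.58.1, run in R 4.3.3 with offset 16, corrected background and applied quantile normalization. Quantile normalization removes a shift shared by most transcripts, while the added offset and any remaining background understate changes of dim probes. Probes detected (p under 0.05) on at least 3 of 6 arrays were tested, 12885 of 25697. Group was the single term of a two-sided lmFit and eBayes fit over all tested probes, with Benjamini-Hochberg adjustment and a threshold of 0.05. The fit was run on simulated data whose planted changes were larger than any member difference, so changes of member size were not simulated. The 3 arrays per group limit the precision.

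Symbols came from the platform annotation, updated by gene number against RefSeq, and 23978 probes had 1 symbol and 1719 none. A gene with several tested probes is given by the one of highest mean. Besides the members, text names come from a fixed rule. It takes the called genes of each pathway list (or its 2 brightest) and the 3 genes nearest to a called member. Outside it stand Rag2 and Prf1 as the knocked-out genes. Also outside it, and named after their values were seen, stand Xist, Tlr8, undetected markers, Cd209a, Clec10a and Hmox1. The same holds for Lyz2, Rel, Socs1 and the pathway genes marked in the text. Members and lists were chosen with earlier results of these data known. The alternatives are 3 scalings, no background correction, the deposited log2 values, a trended and robust variance, weights per array, 3 detection filters, replicate number as a block, and leaving out each array.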

Additional observations from a re-analysis of the deposited data

How the results depend on the processing

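The differences of the 9 detected member probes stayed below 0 under all 17 alternatives, which are not 17 separate checks. The 3 detection filters, the trended, robust variance and the replicate block leave these differences unchanged. The deposited log2 values repeat the setting without background correction. The count of called member probes, 1 as reported, was 3 without between-array normalization and with median centring, 2 with array weights and with the replicate number as a block, 0 with a trended, robust variance, and 0 to 3 with 1 array left out. The probes added were Tlr1 (adjusted p = 0.0330 with the block) and, where 3 were called, also the dimmer Unc93b1 probe. Called pathway genes, 1 as reported, were 6 without between-array normalization, 4 with median centring, 3 with array weights, 4 with the replicate block and 0 to 5 with 1 array left out. Called probes over the whole table, 505 as reported, were 873 without between-array normalization, 323 when detection on all 6 arrays was required, 790 with array weights, 887 with the replicate block and 166 to 678 with 1 array left out, where 166, 169 and 188 followed from leaving out WT replicate 1, 2 or 3. The difference of Tlr4 against Ly96, -0.07 log2, turned to 0.14 without KO replicate 3 and 0.0096 without WT replicate 1. The cause of these changes was not tested. Deviations of same-numbered KO and WT arrays correlated at 0.50, -0.28 and -0.037 for replicates 1 to 3. KO replicate 2 correlated best with WT replicate 3 (0.48) and KO replicate 3 with WT replicate 2 (0.50). The replicate number therefore does not pair the samples, and what the correlated arrays share was not tested. Tlr3 and the other Tlr4 probe gave no value, being at background. Signals near background limit the dimmer probes most, since the Cd180 difference was -1.01 log2 with background correction and -0.70 without.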

Other observations

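Tlr7, Tlr8 and Tlr13 lie on the X chromosome, and Xist, which is transcribed from the inactive X chromosome, was undetected on KO replicate 2 alone. On that array Tlr7 read 8.99 log2, between KO replicates 1 and 3 at 8.84 and 9.27. The brighter Tlr13 probe read 8.44 log2 there, against 8.57 and 8.88 on KO replicates 1 and 3, while the dimmer one read 6.54 there, the highest of the 6 arrays, against 5.51 and 5.88. The Tlr8 probe read 5.44 log2 there, against 6.53 and 5.75, and 5.36 on WT replicate 3. It was detected on only 2 KO and 2 WT arrays, so its low values are near background. Without KO replicate 2 the Tlr7 difference was -0.36 log2, and it was -0.39 with all arrays.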
